A study of Mus musculus with 6 samples.

Results

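Serpins are a family of protease inhibitors, and 46 of the 17866 genes in the expression table belonged to it. A serpin offers its target a bait loop, and a protease that cuts this loop is trapped in a distorted, inactive complex, so that each inhibitor molecule is spent on the protease it stops. Some members have lost this activity and serve as chaperones, hormone carriers or signalling proteins. Most clades are secreted into plasma or tissue fluid, whereas clade b serpins lack a classical signal peptide and act mainly inside cells, where many are known from squamous epithelia and leukocytes. Members were taken as all genes whose symbol is Serpin followed by a clade letter from a to i and a digit. Clade b had 21 members, 12 on chromosome 1 and 9 on chromosome 13, and the other clades had 25 members, 15 of them in clade a.

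Corneal epithelium was taken from C57BL/6 mice at 6 months of age, and 3 independent wild type (WT) samples were compared with 3 samples whose label gives the genotype Rela-/- (KO). Rela encodes p65, a DNA-binding subunit of NF-κB. The study made its knockout with a Krt14-Cre transgene and a floxed Rela allele, so the deletion follows Krt14 promoter activity. Its lineage tracing with this Cre marked the corneal epithelium, limbus, conjunctiva and meibomian glands, and also skin, oral mucosa and trachea. The labels do not say which floxed or Cre alleles the WT mice carried, and they do not give sex.

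Total counts ran from 20158404 to 20880347 per library. Rela fell to 16.5% of the WT level in the KO libraries (log2 fold change -2.60, SE 0.14, edgeR adjusted p = 2.74e-06). The 6 corneal epithelial markers (Krt12, Pax6, Aldh3a1, Tkt, Slurp1 and Upk1b) were all abundant in WT and all lower in KO, with a summed level of 68020 to 68840 CPM (counts scaled to library size) in WT and 11580 to 14320 CPM in KO. Of 12 epidermal differentiation markers, 11 were tested, 10 were higher in KO and 1 (Ivl) was lower. Over all tested genes, 31.8% were higher and 30.2% lower. The sum of the 12 was 50.6 to 84.2 CPM in WT against 15240 to 29520 CPM in KO. Among markers of other cells, 5 leukocyte genes of 7 tested, 4 stromal genes of 5 and 2 neutrophil genes of 3 were higher in KO. So were 3 goblet cell genes of 3 and the 1 endothelial gene tested. Itgam of the leukocyte list, Pdgfra of the stromal list and Ly6g of the neutrophil list were lower. The leukocyte list summed to 271 to 348 CPM in WT and 279 to 352 CPM in KO, and most of this was Itgam. Of the mast cell list, Kit (5265 to 7985 counts in WT) and Cpa3 (16 to 23 counts in WT) were tested, and both were lower. The mast cell protease genes Cma1, Mcpt4 and Tpsb2 were at 0 in all WT libraries, and which cells gave the Kit reads was not tested. No liver or plasma marker reached the test.

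**Figure D1:**
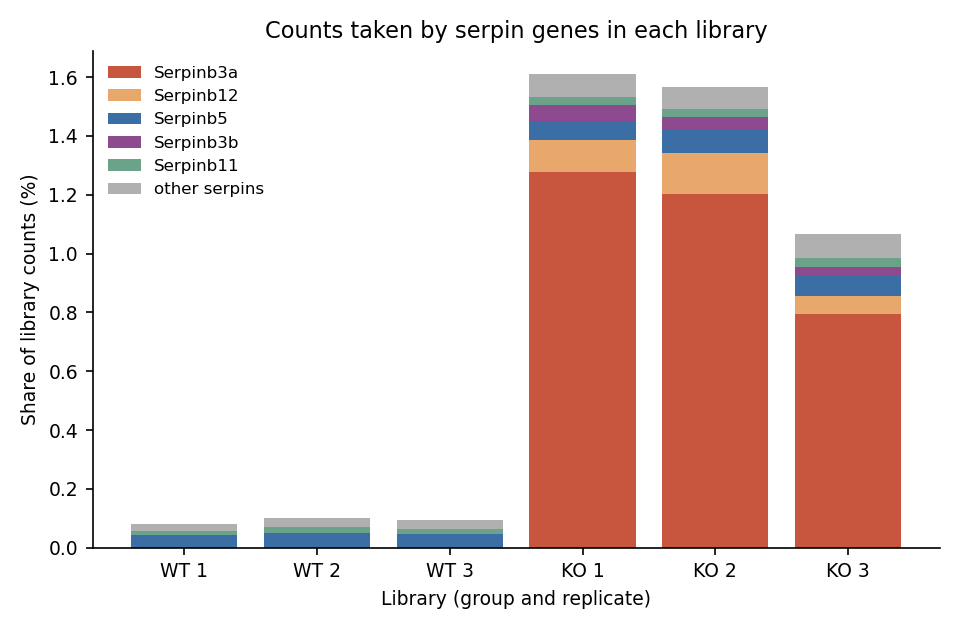
Share of all library counts (%) taken by serpin genes in each of the 6 libraries, as stacked bars that start at 0. The WT bars end between 0.0797% and 0.101% and the KO bars between 1.07% and 1.61%, with Serpinb3a as the largest segment of each KO bar.

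Serpin transcripts made up a far larger part of the RNA in the KO libraries. The 46 genes together took 0.0797%, 0.101% and 0.0944% of the counts in the 3 WT libraries and 1.61%, 1.57% and 1.07% in the 3 KO libraries. Clade b held nearly all of them, at 0.0885% ± 0.00955 (SD, n = 3) in WT and 1.40% ± 0.301 in KO. The other clades together rose from 0.00321% ± 0.00196 to 0.0105% ± 0.00164. In scaled CPM the mean KO sum was 16.9 times the WT sum for clade b and 3.51 times for the other clades. The value of 3.51 depends on WT replicate 2, as the other clades summed to 20.67, 52.91 and 19.55 CPM in the WT libraries. In WT replicate 2, Serpina3n held 636 of their 1138 counts. With Serpinb3a left out, the clade b sum was still 3.83 times the WT sum. In bulk tissue, more cells of a type and more RNA per cell cannot be told apart. The part that the epidermal and other cell type markers play in these sums was not tested.

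The upstream sequences of the chromosome 1 genes are shown first, because these neighbouring genes changed by very different amounts. In KO 11 of the 12 were called higher, where 31.8% of all tested genes were, and 5 of the 12 entered the test only through KO. RefSeq (GRCm38.p6) gave promoter windows for 39 of the 46 members and for 11 of the 12 chromosome 1 members. The 250 bases before the start are printed 5′ to 3′ for the 4 Serpinb3 copies, which were all higher in KO. Also printed are Serpinb12, Serpinb7 and Serpinb2, which rose and lie on either side of these copies in the cluster. Serpinb8, which was not called, is printed last. Capitals mark TATAAA on either strand and the AP-1-like motif TGANTCA, which reads the same on both strands. This pattern allows any middle base and is looser than the AP-1 site TGA(C/G)TCA.
Serpinb3a, chr1:107052304-107052553, minus strand: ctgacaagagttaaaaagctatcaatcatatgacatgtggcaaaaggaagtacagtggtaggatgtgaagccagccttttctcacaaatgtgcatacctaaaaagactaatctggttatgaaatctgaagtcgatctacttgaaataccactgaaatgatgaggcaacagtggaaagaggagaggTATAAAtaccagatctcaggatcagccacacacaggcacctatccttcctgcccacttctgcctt
Serpinb3d, chr1:107083481-107083730, minus strand: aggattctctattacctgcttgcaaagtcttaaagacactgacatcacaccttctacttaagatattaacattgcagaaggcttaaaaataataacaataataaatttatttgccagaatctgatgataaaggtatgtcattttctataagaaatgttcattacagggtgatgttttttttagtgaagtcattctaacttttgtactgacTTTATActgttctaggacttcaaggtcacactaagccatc
Serpinb3b, chr1:107161115-107161364, minus strand: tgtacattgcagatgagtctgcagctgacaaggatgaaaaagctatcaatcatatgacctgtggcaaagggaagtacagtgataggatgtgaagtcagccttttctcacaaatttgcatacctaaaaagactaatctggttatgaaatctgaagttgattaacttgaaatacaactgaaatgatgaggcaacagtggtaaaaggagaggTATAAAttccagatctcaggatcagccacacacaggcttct
Serpinb3c, chr1:107278372-107278621, minus strand: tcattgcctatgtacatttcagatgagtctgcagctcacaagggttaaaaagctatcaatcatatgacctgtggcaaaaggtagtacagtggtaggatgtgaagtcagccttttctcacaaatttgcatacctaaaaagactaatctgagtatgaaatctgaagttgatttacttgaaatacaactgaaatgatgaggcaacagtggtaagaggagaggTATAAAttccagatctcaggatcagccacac
Serpinb12, chr1:106934199-106934448, plus strand: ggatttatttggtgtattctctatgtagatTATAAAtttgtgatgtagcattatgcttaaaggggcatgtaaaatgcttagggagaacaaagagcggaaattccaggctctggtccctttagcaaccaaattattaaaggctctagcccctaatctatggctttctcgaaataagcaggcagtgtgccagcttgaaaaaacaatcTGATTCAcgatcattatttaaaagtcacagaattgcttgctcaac
Serpinb7, chr1:107422439-107422688, plus strand: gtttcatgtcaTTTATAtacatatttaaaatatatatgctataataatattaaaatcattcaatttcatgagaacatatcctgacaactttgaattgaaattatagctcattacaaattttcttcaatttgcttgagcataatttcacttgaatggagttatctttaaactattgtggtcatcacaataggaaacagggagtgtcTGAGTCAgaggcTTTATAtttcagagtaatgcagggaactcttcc
Serpinb2, chr1:107511173-107511422, plus strand: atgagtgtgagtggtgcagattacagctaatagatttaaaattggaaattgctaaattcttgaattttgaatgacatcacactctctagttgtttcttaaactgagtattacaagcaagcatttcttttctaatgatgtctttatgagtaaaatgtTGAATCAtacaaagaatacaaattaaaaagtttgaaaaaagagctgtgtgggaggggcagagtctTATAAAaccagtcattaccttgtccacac
Serpinb8, chr1:107589756-107590005, plus strand: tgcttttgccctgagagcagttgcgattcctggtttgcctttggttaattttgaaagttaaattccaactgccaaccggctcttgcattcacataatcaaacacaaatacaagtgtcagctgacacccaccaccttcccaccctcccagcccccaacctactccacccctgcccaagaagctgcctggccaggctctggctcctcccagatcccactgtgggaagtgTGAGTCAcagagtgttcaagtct

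The windows of Serpinb3a, Serpinb3b and Serpinb3c were near copies of each other, identical at 93.4% to 95.4% of the aligned bases. The Serpinb3d window matched them at 55.8% to 68.8% of aligned bases, in the same range as the 60.7% between Serpinb3a and the unrelated window of Serpinb12. In the 3 similar windows the TATAAA match began 65, 41 and 31 bases before the annotated start of Serpinb3a, Serpinb3b and Serpinb3c, within the same stretch of sequence. In Serpinb3d the match was on the opposite strand. Of the 11 chromosome 1 genes with a window, 7 held TATAAA, against 14.3% of all 27025 genes with windows. A gene counted if any of its windows matched, and Serpinb12 and Serpinb2 each had a second window, which is not printed. The motif TGANTCA was in 7 of the 11, against 7.82% of all genes. These 7 were Serpinb5, Serpinb12, Serpinb11, Serpinb7, Serpinb2, Serpinb10 and Serpinb8. The second window of Serpinb12 did not hold TGANTCA, and by window it was in 8 of 13, against 6.75% of all windows. The motif was thus present both in genes that rose strongly and in Serpinb8, which was not called, and it was in none of the 4 Serpinb3 windows. Its middle base was G in Serpinb7 and Serpinb8, as in the AP-1 site TGA(C/G)TCA, and A or T in the others. How many of all genes hold that narrower site was not counted. The NF-κB consensus (10 letters, both strands) was found in 4.46% of all genes and in none of the 19 clade b genes with a window. In the other clades it was present in 3 of 20 genes, Serpina3g, Serpina3i and Serpinh1. A match describes the letters of these windows and does not show that a factor binds there. The lack of a match does not show that a gene has no site, because only the bases next to the start were searched. The study reports a RelA site for Aldh1a1 that lies further upstream than these windows reach. At a share of 4.46% of all genes, 19 genes are also too few to tell the absence of the NF-κB consensus in clade b from chance.

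The difference between WT and KO was tested over all 13305 genes with enough counts. 29 serpins entered this test, 18 of 21 in clade b and 11 of 25 in the other clades. At an adjusted p of 0.05, 23 were higher in KO, 2 were lower and 4 were not called. Across all genes tested, 31.8% were called higher and 30.2% lower. In clade b 16 of the 18 tested genes were higher and 1 was lower, and in the other clades 7 of 11 were higher and 1 was lower. However, 11 of the 29 averaged under 10 counts in WT and entered the test through KO, and 2 entered through WT. Of the 16 serpins that averaged at least 10 counts in both groups, 12 were higher, none was lower and 4 were not called, where 28.3% of all such genes were higher and 31.4% lower. These 12 were 10 of 11 in clade b and 2 of 5 in the other clades. The median log2 fold change of the 16 was 1.28 for the 11 in clade b and -0.43 for the 5 others, and it was -0.03 over all such genes. The value of -0.43 is that of Serpina3n and rests on WT replicate 2, without which the medians were 1.47 in clade b, 1.16 in the other clades and -0.02 over all such genes. The difference between the clades was not tested. With the cut-off of the study, an adjusted p of 0.001 and a fold of 2, 12 clade b genes and 5 others were higher and none was lower, where 11.6% of all tested genes were higher and 8.24% lower. The ranges of the 2 groups did not overlap in 25 of the 29 tested serpins, as in 68.7% of all tested genes. This held for 23 serpins that were higher in KO, a direction in which 34.8% of all tested genes were separate.

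The chromosome 1 cluster spans 751 kb (chr1:106861180-107611795, coordinates as deposited, on GRCm38), and no other gene of the table lies within it. All 12 of its genes were tested, 11 were higher in KO and 1, Serpinb8, was not called, where 31.8% of all tested genes were higher. Of the 12, 5 averaged under 10 counts in WT and entered the test through KO. Of the 7 that averaged at least 10 counts in both groups, 6 were higher, against 28.3% of all such genes. In order, the genes are Serpinb5, Serpinb12, Serpinb13, Serpinb3a, Serpinb3d, Serpinb3b, Serpinb3c, Serpinb11, Serpinb7, Serpinb2, Serpinb10 and Serpinb8. Genes with small differences stood at both ends and in the middle, and the 6 genes from Serpinb12 to Serpinb3c formed an unbroken run that was at or near 0 counts in WT apart from Serpinb3a. Of the 6 genes within 1000 kb before the cluster, 5 were tested and none was higher. Among them Bcl2, an inhibitor of apoptosis, was lower (log2 fold change -1.74, SE 0.14, adjusted p = 1.72e-05), Phlpp1 was lower as well (-0.74, SE 0.10, adjusted p = 3.54e-04), and Zcchc2, Kdsr and Vps4b were not called. The table held no gene within the same distance after the cluster.

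**Figure D2:**
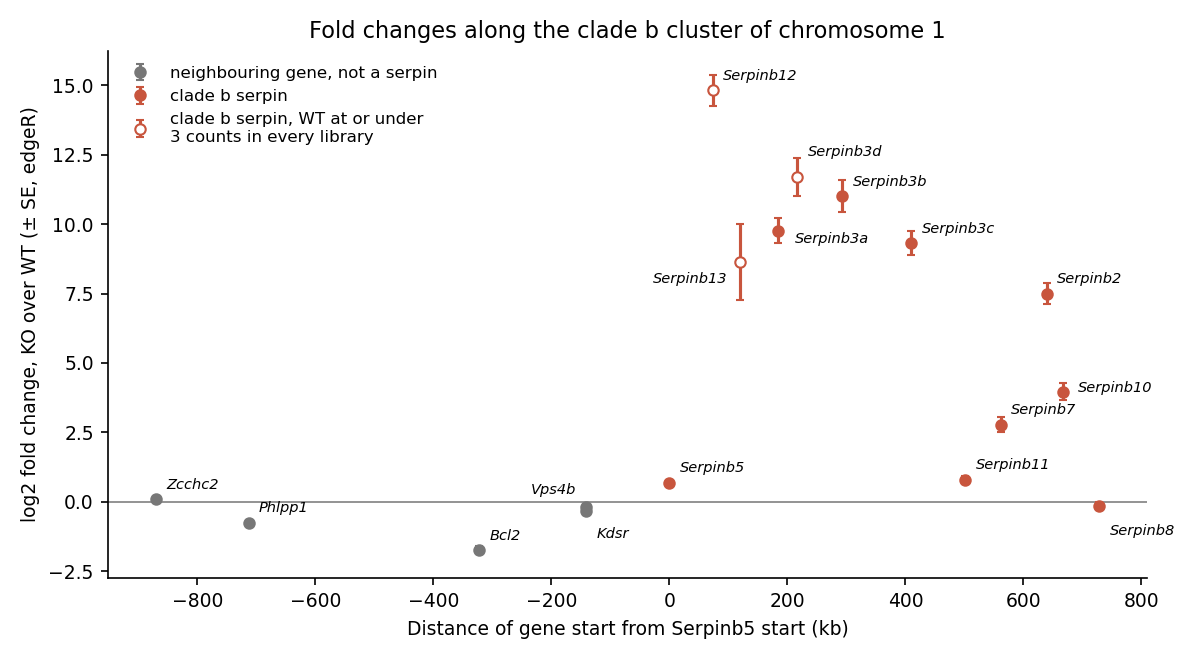
Log2 fold change of KO over WT (± SE, edgeR) against the distance of each gene start from that of Serpinb5 (kb, starts as deposited), for the clade b cluster and the tested genes before it. Open points are genes at or under 3 counts in every WT library, whose fitted fold depends on the prior count. The serpins between 0 and 800 kb lie above 0 except Serpinb8, at -0.15, and the 5 neighbouring genes lie between -1.74 and 0.10.

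The Serpinb3 copies are the mouse relatives of the human squamous cell carcinoma antigens, which inhibit cysteine and chymotrypsin-like proteases in stratified epithelia. Serpinb3a (chr1:107045587-107052303) was counted 151, 344 and 340 times across the WT replicates and 264749, 242702 and 165593 times across the KO replicates. The groups were far apart, with a log2 fold change of 9.76 (SE 0.45, edgeR adjusted p = 1.46e-06). Serpinb3a was the 5th, 5th and 9th most counted gene of the 3 KO libraries, and in WT it ranked between 7415 and 9490. Its share of all counts was 1.28% (95% Wilson interval 1.27% to 1.28%) in KO replicate 1, 1.204% (1.199% to 1.209%) in replicate 2 and 0.793% (0.789% to 0.797%) in replicate 3, where the intervals cover counting error only. It supplied 75.0% to 79.9% of all clade b counts in KO and 0.939% to 1.76% in WT.

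The other 3 copies started from fewer counts still. Serpinb3b had 0, 12.7 and 1.21 estimated counts in WT against 11509, 9099 and 6648 in KO (log2 fold change 11, SE 0.57, adjusted p = 2.24e-06). Serpinb3c had 7, 0 and 10.9 in WT against 4263, 3751 and 2760 in KO (9.31, SE 0.43, adjusted p = 1.46e-06). Serpinb3d was at 0 in all 3 WT libraries and had 509, 424 and 259 counts in KO, at least 143-fold higher than the floor of 3 counts per library. All 4 copies were highest in KO replicate 1 and lowest in KO replicate 3, with no overlap between groups. The ratio of Serpinb3a to Serpinb3b was 23.0, 26.7 and 24.9 in the KO libraries, and that of Serpinb3a to Serpinb3c was 62.1, 64.7 and 60.01. The ratio of Serpinb3a to Serpinb3d varied more, at 521, 572 and 639.

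How reads were divided among these copies limits their separate values. Their longest transcripts were 86.5% to 94.0% identical over aligned bases, and 12.2% to 15.1% of the 50-base words in each also occurred in another gene, a length equal to the reads. Several of their counts were not whole numbers, since reads matching more than 1 gene were divided. The gene sharing most words with Serpinb3a (9.87%) and Serpinb3d (5.31%) was Gm8080, which is not 1 of the 4 copies. The low counts of Serpinb3b and Serpinb3c in WT could therefore belong to Serpinb3a or the reverse. The sum of the 4 is firmer than the separate values, but it does not settle reads that also match Gm8080. The sum of the 4 was 158, 357 and 352 counts in WT against 281029, 255976 and 175259 in KO, and Serpinb3a held 94.2% to 94.8% of it in KO.

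Serpinb12 and Serpinb13 lie just before the Serpinb3 genes and are known from differentiating squamous epithelia. Serpinb12 (chr1:106934449-106957080), an inhibitor of trypsin-like proteases, had 0, 2 and 0 counts in WT against 22631, 27619 and 13301 in KO, a ratio of 34270 (95% interval 9488 to 283000, counting error only). The adjusted p was 5.63e-07 in edgeR. Per transcript length it was the second most abundant serpin in KO. Serpinb13, also called headpin or hurpin, inhibits lysosomal cysteine cathepsins. It was at 0 in WT and had 77, 51 and 14 counts in KO, at least 17.1-fold above the floor (adjusted p = 0.00178). No 50-base word of either gene's transcript was shared with another gene, so their rise does not rest on divided reads.

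Serpinb5, Serpinb11 and Serpinb8 were the cluster's genes with a high level in WT, and they changed little or were not called. Serpinb5, or maspin, an epithelial serpin that does not inhibit proteases, had 8811, 10332 and 9409 counts in WT against 13019, 15922 and 13674 in KO. It rose by 0.69 on the log2 scale (SE 0.12, adjusted p = 0.00121), with every KO library above every WT library. It supplied 48.8% to 54.8% of clade b counts in WT against 3.93% to 6.19% in KO. Serpinb11 went from 2967, 3968 and 3964 counts to 5697, 5345 and 6557 (log2 fold change 0.80, SE 0.14, adjusted p = 0.0015). Serpinb8, an inhibitor of the proprotein convertase furin, had 2378, 2425 and 3238 counts in WT against 2304, 2077 and 2341 in KO. The groups overlapped, and the log2 fold change of -0.15 (SE 0.14) was not called (adjusted p = 0.364).

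**Figure D3:**
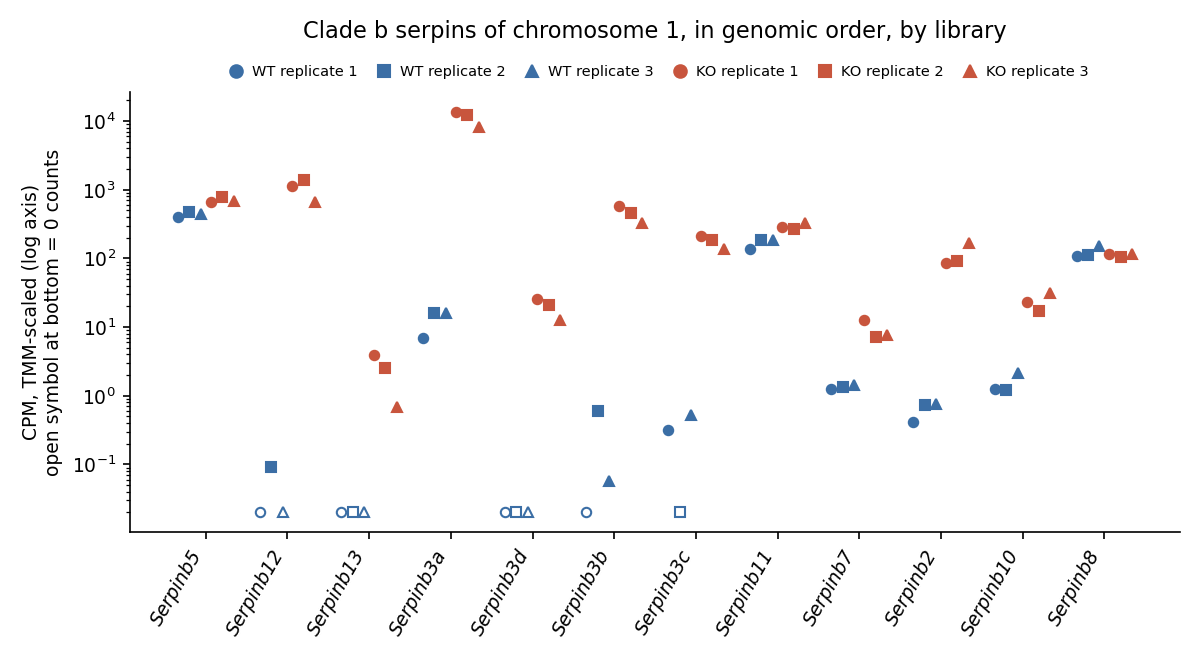
CPM after TMM scaling (log axis) of the 12 clade b serpins of chromosome 1, in genomic order, with 1 point per library (blue WT, red KO, shape for the replicate). Open symbols at the bottom stand for 0 counts. For 11 genes the 3 red points lie above the 3 blue points, and for Serpinb8 they overlap.

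At the far end of the cluster, Serpinb7, Serpinb2 and Serpinb10 rose from low counts. Serpinb7, or megsin, whose human counterpart is mutated in an inherited palmoplantar keratosis, had 27, 29 and 30 counts in WT against 251, 141 and 154 in KO (log2 fold change 2.77, SE 0.27, adjusted p = 5.62e-05). Serpinb2, or plasminogen activator inhibitor type 2, had 9, 16 and 16 counts in WT against 1704, 1815 and 3397 in KO (7.49, SE 0.38, adjusted p = 2.07e-06). Serpinb10, or bomapin, first known from blood-forming cells, had 27.0, 26.3 and 46.0 counts in WT against 460, 345 and 640 in KO (3.97, SE 0.30, adjusted p = 1.54e-05). None of the 3 overlapped between groups. Serpinb2 and Serpinb10 were highest in KO replicate 3, the library in which the Serpinb3 copies were lowest.

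The 9 clade b genes of chromosome 13 include inhibitors of leukocyte proteases, and their sum rose 2.33-fold against 18.9-fold for the chromosome 1 genes. Of 6 tested, 5 were higher and 1 was lower. The 4 that averaged at least 10 counts in both groups were all higher, where 28.3% of all such genes were higher and 31.4% lower. Serpinb1a, which inhibits neutrophil elastase and cathepsin G, had 981, 1807 and 1581 counts in WT against 2788, 3295 and 3788 in KO (log2 fold change 1.28, SE 0.22, adjusted p = 0.00113). Serpinb6a, another inhibitor of cathepsin G, went from 595, 735 and 535 to 931, 1234 and 1341 (1.02, SE 0.16, adjusted p = 7.26e-04). Serpinb9, the inhibitor of the cytotoxic protease granzyme B, went from 82, 89 and 66 to 160, 140 and 189 (1.15, SE 0.18, adjusted p = 7.45e-04). In each of these 3 genes every KO library was above every WT library.

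The remaining chromosome 13 genes had fewer counts and went both ways. Serpinb6b rose from 14.2, 16.2 and 36.3 counts to 99.8, 91.1 and 97.6 (log2 fold change 2.23, SE 0.35, adjusted p = 7.07e-04). Serpinb1b was at 0 in WT and had 23.0, 26 and 27.1 counts in KO, at least 9.12-fold above the floor. Its close relative Serpinb1c was lower in KO, at 6.79, 6.24 and 5.36 counts against 18.3, 21.9 and 24.1 in WT (-1.70, SE 0.34, adjusted p = 0.00249). All 9 chromosome 13 genes had estimated counts that were not whole in at least 1 library. The share of 50-base words found in another gene was 0.38% for Serpinb9 and 0.499% for Serpinb9b, 2.68% to 6.63% for Serpinb1a, Serpinb1b, Serpinb1c, Serpinb6a and Serpinb6b, 10.4% for Serpinb6c and 30.8% for Serpinb9d, so divided reads can affect these genes to very different degrees. Serpinb9b (1, 1 and 0 counts in WT against 23.0, 13 and 7 in KO, ratio 23.2, interval 6.04 to 198), Serpinb9d (0 in WT and at most 3.51 in KO) and Serpinb6c (2.2 to 8.03 in WT and 0 to 3.20 in KO) were not tested. Among leukocyte markers, Ptprc, Cd74, Lyz2, Csf1r and Laptm5 were higher in KO, Itgam was lower, Cd68 was not called and Cd3e was not tested. The summed level of these 8 markers was 271 to 348 CPM in WT and 279 to 352 CPM in KO. Most of it was Itgam, which was lower in KO (137 to 202 CPM) than in WT (232 to 307 CPM), and the other 7 summed to 38.3 to 40.7 CPM in WT and 95.4 to 150 CPM in KO. The part of these markers in the result was not tested.

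**Figure D4:**
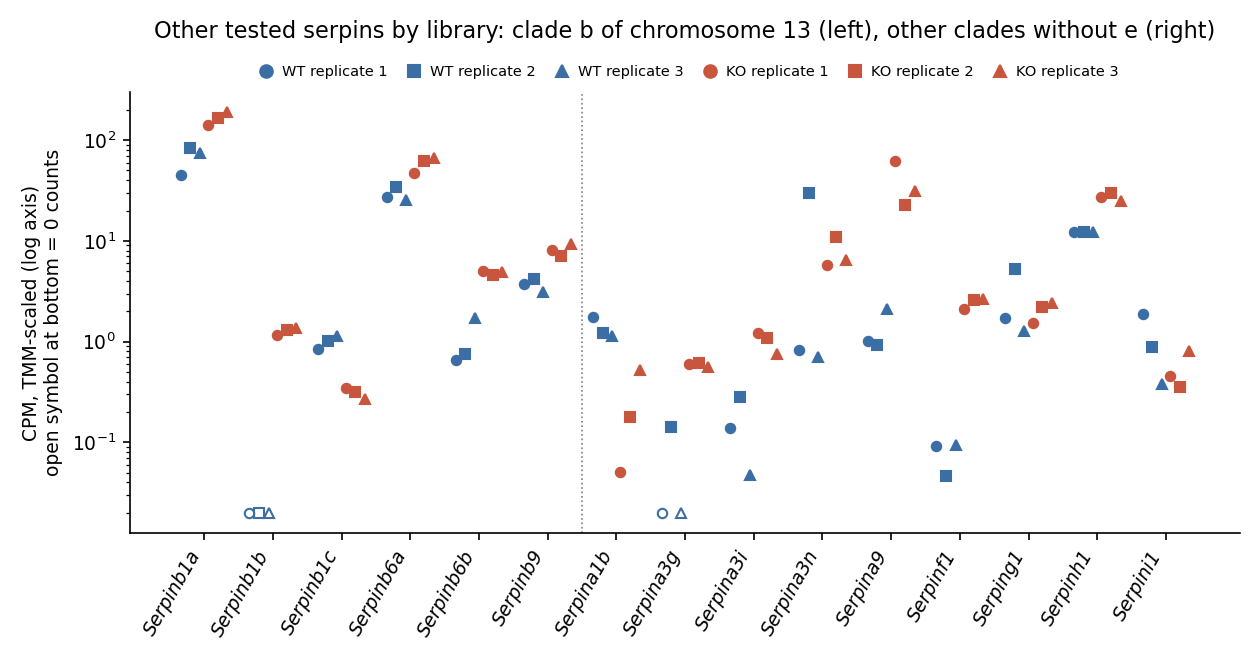
CPM after TMM scaling (log axis) of 15 tested serpins outside the chromosome 1 cluster, clade b of chromosome 13 left of the dotted line and other clades, without clade e, right of it, with 1 point per library. Open symbols at the bottom stand for 0 counts. Serpinb1c and Serpina1b are lower in all KO libraries, and in Serpina3n WT replicate 2 stands above all other libraries.

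Among the clades that are mainly secreted, an inhibitor of thrombin rose strongly. Serpine2, or protease nexin-1, an inhibitor of thrombin and urokinase, had 1, 7 and 6 counts in WT against 468, 356 and 393 in KO (log2 fold change 6.51, SE 0.33, adjusted p = 2.12e-06). The groups were separate, and KO replicate 1 was the highest library. Serpini1, or neuroserpin, an inhibitor of tissue plasminogen activator, had 41, 19 and 8 counts in WT against 9, 7 and 16 in KO and was not called (adjusted p = 0.184).

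Serpins without a protease target also rose. Serpinh1, or HSP47, the collagen chaperone of the endoplasmic reticulum, had 270, 263 and 260 counts in WT against 535, 593 and 505 in KO (log2 fold change 1.15, SE 0.11, adjusted p = 4.14e-05). Serpinf1, or pigment epithelium-derived factor, which inhibits the growth of new vessels, had 2, 1 and 2 counts in WT against 42, 51 and 53 in KO, a ratio of 31.5 (interval 13.2 to 98.5, adjusted p = 1.51e-05). Both genes are also known from fibroblasts. Of the 9 stromal and fibroblast markers, 5 were tested, Col1a1, Col1a2, Dcn and Vim were higher and Pdgfra was lower. Lum, which defines corneal stromal keratocytes, was at 0 in all WT libraries and had 2, 4 and 1 counts in KO. The summed level of the 9 was 13.3 to 17.0 CPM in WT and 15.2 to 24.9 CPM in KO. In WT most of it was Pdgfra (10.9 to 15.6 CPM, against 1.05 to 1.40 CPM in KO), and the other 8 summed to 0.687 to 2.88 CPM in WT and 13.8 to 23.9 CPM in KO. The part of these markers in the result was not tested.

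Clade a, the antitrypsin and antichymotrypsin group, was mostly silent, with 5 of 15 members tested. Serpina9, or centerin, known from germinal centre B cells, was its most counted member in KO, with 22, 20 and 45 counts in WT against 1225, 453 and 631 in KO (log2 fold change 4.83, SE 0.47, adjusted p = 5.28e-05). Serpina3i (3, 6 and 1 counts against 24.1, 21.7 and 15) and Serpina3g (0, 3.08 and 0 against 11.8, 12.4 and 11.3) rose at low counts, with log2 fold changes of 2.67 (SE 0.51, adjusted p = 0.00203) and 3.49 (SE 0.78, adjusted p = 0.00443). Serpina1b, an antitrypsin gene, was lower in KO, at 1, 3.59 and 10.5 counts against 37.9, 26 and 24.1 in WT (-2.32, SE 0.56, adjusted p = 0.00693). The antitrypsin copies share reads, and 10 clade a members had counts that were not whole. Plasma or liver RNA was near absent in both groups, as Alb, Apoa1, Ttr and Ahsg summed to at most 0.398 CPM in any library.

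Serpina3n, an acute-phase relative of human antichymotrypsin, depended on 1 library. It had 18, 636 and 15 counts in WT against 113, 216 and 131 in KO, so that WT replicate 2 was above all KO libraries and the other 2 WT libraries were below them. Its log2 fold change of -0.43 had an SE of 1.12 and was not called (adjusted p = 0.755). Without WT replicate 2 it was 3.32 (adjusted p = 1.86e-04). Serping1, the C1 inhibitor of complement, showed the same library apart, with 37, 114 and 27 counts in WT against 30, 44 and 48 in KO (-0.44, SE 0.51, adjusted p = 0.484), and 0.46 without WT replicate 2. WT replicate 2 also stood out in S100a8, with 160 counts against 0 and 1, and in S100a9, with 1263 against 17 and 28. Both genes are on the neutrophil list and are also made by stressed keratinocytes. Of the same list, Elane and Ngp had at most 1 count in any WT or KO library. Retnlg was at 0 in all WT libraries, had 0, 9 and 4 counts in KO and was not tested. Ly6g had 81.5, 48.6 and 200 counts in WT, with WT replicate 2 the lowest of these. Its counts were not whole in all 6 libraries, so divided reads can affect it. Which cells gave these reads was not tested. The list summed to 68.4 CPM in WT replicate 2 and to 4.51 and 10.8 CPM in the other 2, against 184 to 608 CPM in KO, where 2 of its 3 tested genes were higher and Ly6g was lower, and its part in the Serpina3n result was not tested.

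The other members had few counts in any library. Serpinf2, the inhibitor of plasmin, had 1, 5 and 8 counts in WT against 9, 10 and 21 in KO. Serpina12, or vaspin, which inhibits kallikrein-related peptidase 7, had 0, 1 and 0 in WT and 12, 6 and 10 in KO. Serpina1e had 6.25, 13.1 and 8.86 in WT and 3, 2.41 and 3.47 in KO. None of these was tested. Serpina1a was at most 4.33 and Serpina11 at most 5, and Serpina10, Serpina1d, Serpina3c, Serpina3f, Serpina3m, Serpina5, Serpinc1, Serpind1 and Serpine3 stayed at or under 3.27 counts in every library. Antithrombin (Serpinc1) and heparin cofactor II (Serpind1), the plasma thrombin inhibitors, were thus near the detection limit of 0.137 to 0.152 CPM, the level of 3 counts.

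Per transcript length, in FPKM, the order of the family was different in the 2 groups. In WT Serpinb5 was highest at 178 ± 14.1 FPKM (SD, n = 3), followed by Serpinb11 at 103 ± 16.1. Serpinb1a (45.2 ± 13.2) and Serpinb8 (42.7 ± 7.76) came next and overlapped with each other, then Serpinb6a at 20.8 ± 3.53 and Serpinb3a at 8.26 ± 3.25. In KO Serpinb3a was highest at 6713 ± 1605 FPKM and Serpinb12 second at 629 ± 226, with no overlap between them. Serpinb3b (271 ± 72.9) and Serpinb5 (268 ± 33.6) overlapped and came next, followed by Serpinb11 at 168 ± 15.3. Serpinb3c (105 ± 23.0) overlapped with Serpinb1a (101 ± 14.1), and Serpinb2 stood at 56.3 ± 22.4. The first gene outside clade b was Serpinh1 in WT, at 5.66 ± 0.146, and Serpina9 in KO, at 21.4 ± 11.1.

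Of 57 listed proteases, receptors and cofactors that serpins inhibit or act beside, 50 were in the table and 34 were tested, of which 21 were higher in KO, 5 were lower and 8 were not called, where 31.8% of all tested genes were higher and 30.2% lower. Of the 29 that averaged at least 10 counts in both groups, 17 were higher, 5 were lower and 7 were not called, against 28.3% higher and 31.4% lower over all such genes. The largest rises were in kallikrein-related peptidases, the serine proteases that cut the junctions of shedding keratinocytes. Klk13 had 2, 8 and 4 counts in WT against 22212, 15279 and 25369 in KO (log2 fold change 12.20, SE 0.38, adjusted p = 2.65e-07). Klk14 went from 8.25, 30.2 and 16.5 to 29431, 12390 and 18373 (10.20, SE 0.53, adjusted p = 2.16e-06), and Klk7 from 1, 1 and 2 to 1605, 804 and 1688, a ratio of 1105 (interval 431 to 4057). The largest falls were in F3, the tissue factor that starts coagulation (-1.87, SE 0.18, adjusted p = 5.53e-05), the membrane protease Tmprss11e (-1.27, SE 0.17, adjusted p = 2.57e-04) and the lysosomal protease Ctsf (-1.24, SE 0.19, adjusted p = 6.43e-04). The leukocyte targets of clade b, Elane, Prtn3, Gzma and Gzmb, had at most 9 counts in any library and were not tested.

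Of 36 listed protease inhibitors from other families, 32 were in the table and 21 were tested, of which 15 were higher in KO, 3 were lower and 3 were not called, beside the same 31.8% and 30.2% of all tested genes. Of the 16 with at least 10 counts on average in both groups, 10 were higher, 3 were lower and 3 were not called (28.3% and 31.4% over all such genes). Slpi, the secretory leukocyte protease inhibitor, had 28, 21 and 21 counts in WT against 12419, 9580 and 8849 in KO (log2 fold change 8.89, SE 0.22, adjusted p = 1.15e-07). A pair of relatives in the same whey acidic protein family rose as well, Wfdc5 from 84, 157 and 79 counts to 3126, 3011 and 3378 (5.002, SE 0.25, adjusted p = 1.79e-06) and Wfdc12 from 0, 1 and 0 to 732, 1143 and 553, a ratio of 2619 (interval 470 to 103500). The 3 that fell were the metalloproteinase inhibitors Timp3 (-1.56, SE 0.24, adjusted p = 6.65e-04) and Timp2 (-0.37, SE 0.13, adjusted p = 0.0383), and Spint2, an inhibitor of membrane serine proteases (-0.73, SE 0.12, adjusted p = 8.57e-04). Both lists were drawn up with earlier results of these data known, so their counts are a description.

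**Figure D5:**
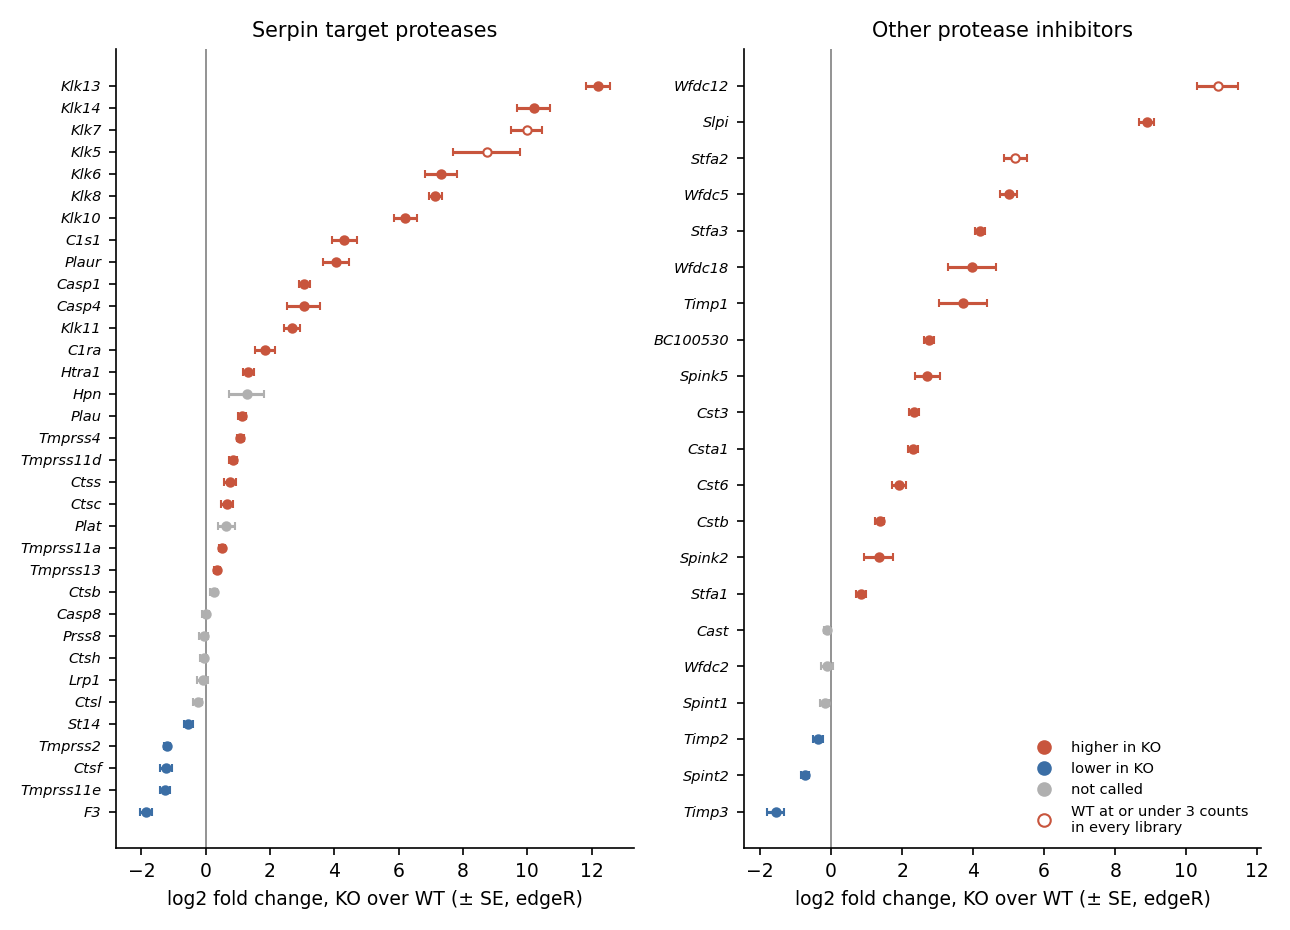
Log2 fold change of KO over WT (± SE, edgeR) of the 34 tested serpin target proteases (left) and the 21 tested inhibitors of other families (right), ordered by size and coloured by call at an adjusted p of 0.05. Open points are genes at or under 3 counts in every WT library, whose fitted fold depends on the prior count. The kallikrein-related peptidases fill the top 7 places on the left, led by Klk13 at 12.20, and F3 is lowest at -1.87.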

How the data were processed

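RNA from separated corneal epithelium of 3 WT and 3 KO samples was sequenced as 50-base single reads. The submitters' processing notes name Bowtie2 2.2.5, RSEM 1.2.12 and the build mm9, but the coordinates in the table are those of GRCm38. The labels name an Illumina library kit, whereas the study describes rRNA depletion and BGISEQ-500. The authors deposited, per gene and library, estimated counts and FPKM from RSEM, which divides reads that match several genes, so 34.1% to 36.1% of nonzero gene counts were not whole (tolerance 0.005). The authors also deposited TPM, group means and columns of their own comparison (log2 fold changes and p-values from DESeq2), none of which was used. Estimated counts were rounded, and the filterByExpr, TMM and quasi-likelihood test of edgeR 4.0.16 (R 4.3.3) were fitted across the table with no term besides genotype, and p-values were adjusted by Benjamini-Hochberg over 13305 genes. The 3 replicates of a group are separate samples. The p-values set the difference between groups against the spread between replicates, which was estimated with information from all tested genes. DESeq2 1.42.0 and limma 3.58.1 gave alternatives. The script was tested on simulated data. A floor of 3 counts was 0.137 to 0.152 CPM. Intervals of ratios and shares are 95% and cover counting error only.

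Every member entered the counts, and the values of 1 member are not reported here. Those with a mean of at least 100 counts in the higher group were named with all values, those below with counts where called, and from each protease or inhibitor list the 3 largest rises and falls among such genes. Other chromosome 13, clade a and neighbouring genes given by name were added after their values were seen. The members, marker lists and gene lists (corneal, epidermal, stromal, leukocyte, neutrophil, mast cell, endothelial, goblet cell, liver and plasma) were chosen with earlier results of these data known. Same-numbered WT and KO samples were not paired. Promoter windows came from RefSeq and transcripts from GENCODE M21, and word matches used the longest transcript per gene.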

Additional observations from a re-analysis of the deposited data

How the results depend on the processing

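The 29 tested serpins were refitted under 17 alternatives, which gave 484 values, of which 470 kept their direction and their side of the threshold. Another 8 lost their call, all at the cut-off of the study. The other 6 changed sign, and 1 of these, Serpina3n without WT replicate 2, was then called. Clade b had 12 to 17 genes higher over all alternatives, and the other clades 4 to 9. Leaving out each library in turn gave 16 to 17 higher and 1 lower in clade b and 7 to 8 higher and 1 lower in the other clades. With a mean of at least 50 counts required, no clade b gene and no other serpin was lower and 4 others were higher. With no filter on low counts 2 other serpins were lower. At the cut-off of the study no clade b gene, 0 other serpins and 1 inhibitor of other families were lower, and 14 target proteases were higher. With a correction for gene length 5 inhibitors of other families were lower, and this setting alone moved the median of all genes by over 0.1, to -0.16 on the log2 scale. Leaving out each library in turn gave 2 to 3 lower inhibitors of other families.

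Serpinb8 turned to 0.035 without WT replicate 3 (leave-one-out range -0.236 to 0.035). Serping1 ran from -0.76 to 0.46 when each library was left out, and was positive only without WT replicate 2. Serpina3n ran from -0.97 to 3.32 when each library was left out, and was 1.23 with limma on log2(FPKM + 0.1) and 0.52 with limma on log2(FPKM + 1). With the replicate number as a block it was 1.02. Same-numbered samples did not deviate together (correlations of 0.0345, -0.00998 and 0.0606), and under the block 16 clade b genes and 7 others were higher and 1 of each was lower, as without it. At these library sizes, the limit for the low members was a floor of 3 counts. The marker sums without Itgam or Pdgfra and the medians without WT replicate 2 were chosen after seeing the data.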
